A study of Mus musculus with 12 samples.

Results

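Potassium and calcium channels and their partners were followed across tumour leukocytes through 9 of the 32285 genes in the count matrices. They were chosen by name (Kcnk10, Kcnk5, Kcnk6, Kcna3, Kcnn4, Cacna1d, Orai1, Stim1 and Atp1b1), and the choice was made with the T cell comparison between CAL-101 and control mice already known, where Kcnk10 was among the largest decreases. The T cell differences of these genes are therefore given as a description without a p-value. P-values are given for NK cells, the host class, and for other channel genes, but both comparisons had been fitted before the genes and lists were chosen, so these p-values are not independent evidence.

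Each library came from 1 mouse. In the CAL-101 group 3 mice received T cells that had been cultured with CAL-101 (idelalisib, which blocks the delta isoform of PI3K), and in the control group 3 mice received T cells cultured with vehicle. All 6 mice were of the Rag1-deficient strain B6.129S7-Rag1tm1Mom/J, which forms no T or B cells of its own but keeps NK and myeloid cells. All carried intradermal B16-F10 melanoma, a mouse tumour line, and each received, by retro-orbital injection, 1000000 transferred CD8+ T cells of the Pmel Thy1.1 line, whose receptor recognises a melanocyte antigen. From a part of each tumour, live CD45.2+ cells were sorted and profiled with a droplet-based 3′ method that also read antibody tags, not used here. Only the transferred T cells had met the drug in culture. Age and sex of the mice, and dose and duration of the culture, were not given in the sources used.

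T cells hold their membrane potential with potassium channels, and that potential is the driving force for calcium entry. After receptor signalling empties the endoplasmic reticulum, STIM1 senses the loss and opens ORAI1 pores in the plasma membrane, and the calcium that enters activates calcineurin and NFAT. Voltage-gated Kv channels and the calcium-activated channel encoded by Kcnn4 are the classical potassium channels of lymphocytes, two-pore (K2P) channels pass a background potassium leak, and the sodium-potassium ATPase builds the gradients that all of them use.

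The promoter windows of Kcnk10 are shown because it had the largest difference of the 9 genes in the fits of the whole T cell class, and because 3′ tags do not tell from which of its annotated starts the RNA came. Both are RefSeq windows on the minus strand of GRCm38.p6 (mm10), running from 250 bases before to 50 bases after an annotated start, at chr12:98578164-98578463 (outer start) and chr12:98575078-98575377 (inner start). Capitals mark TTTCC, the complement of the NFAT core GGAAA.
Kcnk10 outer start: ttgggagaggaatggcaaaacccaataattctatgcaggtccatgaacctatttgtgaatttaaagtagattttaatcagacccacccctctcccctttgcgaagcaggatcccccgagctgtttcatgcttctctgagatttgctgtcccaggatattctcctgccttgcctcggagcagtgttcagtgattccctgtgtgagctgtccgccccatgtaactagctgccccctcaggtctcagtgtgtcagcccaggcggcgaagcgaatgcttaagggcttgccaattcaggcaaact
Kcnk10 inner start: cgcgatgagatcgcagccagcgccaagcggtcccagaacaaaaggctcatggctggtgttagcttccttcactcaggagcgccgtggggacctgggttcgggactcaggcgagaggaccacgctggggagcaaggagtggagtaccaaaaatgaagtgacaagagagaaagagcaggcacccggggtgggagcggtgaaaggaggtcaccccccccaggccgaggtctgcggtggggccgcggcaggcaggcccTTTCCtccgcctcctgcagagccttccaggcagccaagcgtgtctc
Searched on both strands, GGAAA was found in 3 of the 10 windows that 8 of the 9 genes have (1 each of Kcnk10, Kcna3 and Cacna1d), against 61.3% of 32851 mouse promoter windows of the same length. The FOXO core GTAAACA (3.65% of all windows), the AP-1 motif TGANTCA (7.81%) and the TCF and LEF core CTTTGA (16.0%) were in 0 of the 10.

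The 6 libraries held 45477 cells, with 75716841 to 97933109 RNA UMIs (molecule counts) per library, and any 2 libraries had 8 to 31 cell barcodes in common. Cells deposited as T cells, CD8+ T cells or CD4+ T cells were merged to 1 class of 32861 T cells; 11687 cells were labelled NK cells, 414 neutrophils, 360 monocytes and 127 dendritic cells. Among T cells, 7 T cell markers summed to 11940 to 12670 counts per 1000000 RNA UMIs (CPM) in CAL-101 mice and 10450 to 11730 CPM in control mice, and among NK cells 7 NK markers summed to 4256 to 4400 and 4257 to 4618 CPM. The NK list does not separate NK cells from neutrophils, where it summed to 5217 to 6131 and 5153 to 5794 CPM. The T class also held cells of clusters 0, 7, 8, 9 and 13, which hold most NK cells. These were 9.32, 2.18 and 3.46% of T cells in CAL-101 mice 1, 2 and 3, and 7.97, 16.6 and 9.78% in control mice 1, 2 and 3. In clusters 0, 7 and 13 NK markers summed above T cell markers in each mouse. In clusters 8 and 9 T cell markers summed above NK markers in each mouse. The 2 lists are not on the same scale, since T cells summed higher on theirs than NK cells did on theirs. T-labelled cells were 67, 18 and 47 of the 163, 51 and 98 cells of cluster 9 in CAL-101 mice. In control mice they were 97, 137 and 115 of 268, 392 and 312. Cells labelled monocytes went partly against their label, since 5 melanoma markers summed to 4943 to 5370 CPM in CAL-101 mice and 855 to 6687 CPM in control mice. Cells labelled dendritic cells did so in some mice, at 3538, 1840 and 16.0 CPM in CAL-101 and 20.2, 3521 and 963 CPM in control mice. Values below are given per mouse in the order 1, 2, 3. Groups did not overlap for 39.6% of all genes tested in T cells and 26.8% in NK cells. That share was not counted within single clusters, so a lack of overlap there is description only. Nothing in the labels says that samples of a group were separate experiments, so p-values measure the spread between these mice.

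Kcnk10, a K2P channel of the mechanosensitive TREK subfamily (ENSMUSG00000033854, chr12:98429432-98578213, overlapping the lncRNA Gm40893), was the member that differed most over the whole T cell class. There it stood at 26.7, 14.6 and 18.3 CPM in CAL-101 mice, against 100.9, 118 and 123 CPM in control mice. The groups were far apart, and the lowest control mouse lay above the highest CAL-101 mouse. The log2 difference was -2.57 (SE 0.20, n = 3 mice each), or 5.94-fold lower, from 4133 UMIs in CAL-101 and 23071 UMIs in control T cells.

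The lower Kcnk10 was seen in each T cell cluster. Without overlap between the groups, it was lower in 5 of the 5 clusters 1 to 5, with log2 differences of -2.47, -2.62, -2.17, -2.48 and -2.41. Cluster 4 held the highest levels, 49.4, 23.3 and 40.2 CPM in CAL-101 mice and 179.5, 199 and 229 CPM in control mice. Cluster 1 came next, with 44.3, 23.0 and 26.3 CPM in CAL-101 mice and 140.6, 186 and 174 CPM in control mice. The ranges of these 2 clusters overlapped in CAL-101 mice, but within each mouse cluster 4 was the higher. Both consist of cells with few UMIs and a high mitochondrial share, medians of 2471 to 5491 UMIs and 11.4 to 18.3% per mouse.

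Clusters 2 and 3 lay in the middle, with overlapping control values of 93.0 to 103.8 CPM and 95.9 to 120.1 CPM. Within each mouse cluster 3 was the higher of the pair. Cluster 5, which made up 21.3 to 22.2% of T cells in CAL-101 and 1.65 to 3.00% in control mice, held the lowest levels: 11.8, 9.40 and 9.50 CPM in CAL-101 mice and 50.6, 45.6 and 61.1 CPM in control mice. On T cells of clusters 1 to 5 alone the edgeR log2 difference was -2.70. With the UMI shares of these clusters held at their mean over the 6 mice, the log2 difference of mean CPM was -2.38. The part of the cluster mixture in the T cell difference was not tested.

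**Figure D1:**
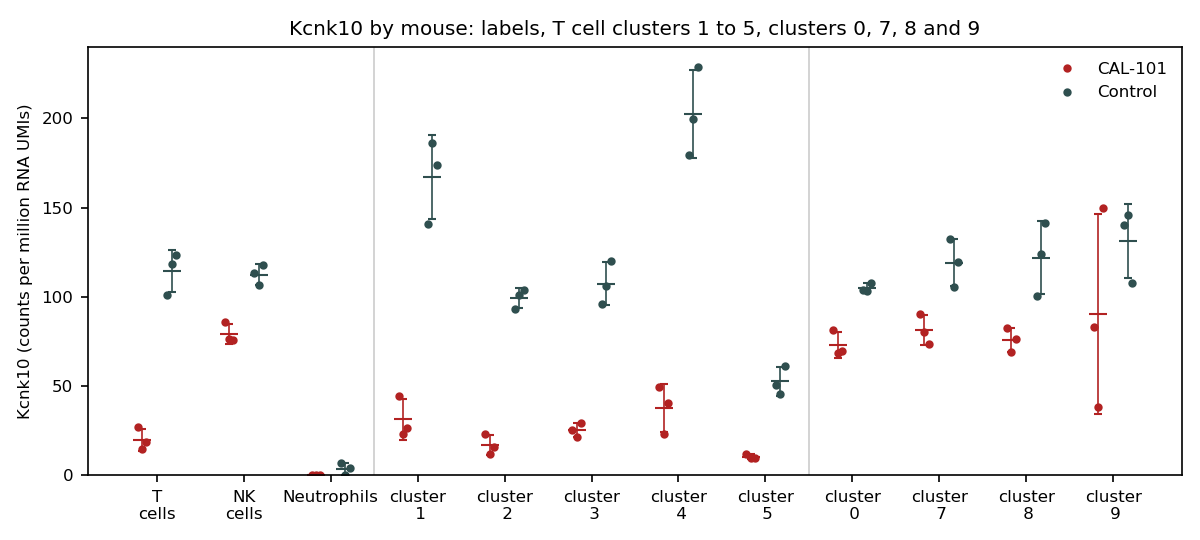
Kcnk10 in CPM (vertical axis) for 3 deposited classes and 9 deposited clusters (horizontal axis); points are mice, the horizontal bars are means and the whiskers 1 SD (n = 3 per group). CAL-101 mice lie below control mice without overlap in T cells, NK cells and every plotted cluster but cluster 9, and the gap in T cells (log2 -2.57) is wider than that in NK cells (-0.53).

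Counted by cells, fewer T cells held a Kcnk10 molecule. With every cell thinned to 2000 UMIs, 3.96% ± 1.09 of T cells in CAL-101 mice had a Kcnk10 UMI, against 19.0% ± 1.48 in control mice (SD, n = 3 each), over 14275 and 14701 cells; 2028 and 1857 shallower cells were left out. Unthinned, the shares were 13.3% ± 2.87 and 43.8% ± 1.85 (SD, n = 3 each). Among neutrophils, which should lack this gene, 1 of 385 thinned cells had a UMI (0.260%, exact 95% interval 0.00658 to 1.44%, counting error only). Median depths before thinning were 9136 UMIs in T cells and 3175.5 in neutrophils.

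NK cells, which were host cells and had not been in the culture, also held less Kcnk10. They had 85.8, 76.0 and 76.0 CPM in CAL-101 mice and 113, 106 and 118 CPM in control mice, without overlap. The log2 difference was -0.53 (SE 0.07, adjusted p = 0.0123, edgeR quasi-likelihood test, Benjamini-Hochberg over 14028 genes), or 1.44-fold lower. The call was lost when any one of 3 mice was left out: without CAL-101 mouse 3, control mouse 1 or control mouse 3 the adjusted p was 0.0684, 0.0544 and 0.0630, with log2 differences of -0.50, -0.53 and -0.49. By cluster it was lower without overlap in NK clusters 0 and 7, with log2 differences of -0.52 and -0.58, while cluster 9 (-0.51) overlapped. In cluster 9 T cell markers summed to 1683 to 2264 CPM over all mice, above NK markers at 1371 to 1904 CPM. These sums are not on the same scale, and most cells of cluster 9 were not labelled T cells in any mouse. The cycling cluster 8 (-0.72) was a mixture: its T cell markers summed to 3276 to 4049 CPM in CAL-101 and 2895 to 5909 CPM in control mice, above its NK markers at 2538 to 2683 and 2162 to 2616 CPM, and its T-labelled cells held 53.8 ± 4.78 CPM of Kcnk10 in CAL-101 and 117.8 ± 11.5 CPM in control mice (SD, n = 3 each).

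CAL-101 T and NK cells stood apart in Kcnk10 (19.9 ± 6.18 and 79.2 ± 5.65 CPM), while the means of control T and NK cells differed by less than their SD (114 ± 11.8 and 112 ± 5.79 CPM, SD, n = 3 each). T cell markers in NK cells summed to 977.5 to 1104 CPM in CAL-101 and 773 to 1069 CPM in control mice, so these overlapped where Kcnk10 did not; their part in the NK cell result was not tested. T-labelled cells that lay in the NK cluster 0 carried 79.6, 58.2 and 50.3 CPM in CAL-101 mice and 103, 110.6 and 103 CPM in control mice. The CAL-101 values rest on 115, 30 and 28 UMIs. In each of the 3 CAL-101 mice this was below NK cells of all clusters (85.8, 76.0 and 76.0 CPM). Cluster 0 as a whole, these T-labelled cells included, held 81.1, 68.2 and 69.4 CPM in CAL-101 mice, so the gap in mouse 1 was small. In CAL-101 mice T-labelled cells of cluster 7 were lower still on average, at 49.3 ± 8.96 CPM, against 119 ± 27.7 CPM in control mice. These cluster 7 values rest on 36 UMIs in CAL-101 and 251 in control mice. Thinned to 2000 UMIs, 12.2% ± 1.93 of NK cells in CAL-101 and 15.9% ± 0.440 in control mice had a Kcnk10 UMI (unthinned median depth 6694 UMIs).

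The other 2 K2P genes showed no such gap. Kcnk5, which encodes the alkaline-activated channel TASK-2 (ENSMUSG00000023243, chr14:20140057-20181782), had 21.2, 17.2 and 19.0 CPM in CAL-101 T cells and 20.5, 20.03 and 21.6 CPM in control T cells. The groups overlapped (log2 -0.16, SE 0.08). In NK cells they did so as well, at 15.2, 11.1 and 10.8 against 12.9, 11.02 and 12.2 CPM (log2 0.05, SE 0.14, edgeR adjusted p = 0.870). Within single clusters Kcnk5 was lower without overlap in clusters 1 and 2 (log2 -0.10 and -0.17), while clusters 3, 4 and 5 overlapped. The gap in cluster 1 was slight, from 31.03 CPM in the highest CAL-101 mouse to 31.09 CPM in the lowest control mouse. In cluster 9 it was higher without overlap (log2 0.75, SE 0.44), from 18 and 35 UMIs. Its highest clusters were 4 (27.7 to 40.1 CPM over the 6 mice) and 1 (29.6 to 32.4 CPM), which overlap, and NK cluster 7 held 6.44 to 10.4 CPM; in the small NK-led cluster 13 it was detected in 1 of 6 mice.

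Kcnk6, a K2P channel of the TWIK subfamily (ENSMUSG00000046410, chr7:29221928-29232522), was near the limit of what these libraries resolve. T cells held 1.77, 1.91 and 1.94 CPM in CAL-101 mice and 2.09, 2.17 and 2.05 CPM in control mice, lower without overlap (log2 -0.20, SE 0.12). NK cells held 1.02, 1.45 and 1.40 CPM in CAL-101 and 0.225, 0.756 and 0.911 CPM in control mice, higher without overlap, from 40 and 51 UMIs (log2 0.85, SE 0.44, edgeR adjusted p = 0.299). The 2 classes thus separated in opposite directions at levels near 1 to 2 CPM. The highest class was dendritic cells, at 8.12, 15.8 and 8.02 CPM in CAL-101 and 40.4, 11.7 and 5.80 CPM in control mice, from 11 and 10 UMIs. In some mice that class also held melanoma markers.

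Kcna3 encodes the voltage-gated channel of T cells (ENSMUSG00000047959, chr3:107036162-107038129) and Kcnn4 the calcium-activated channel (ENSMUSG00000054342, chr7:24369826-24385212). Kcna3 was detected at 1.30, 1.38 and 1.25 CPM in CAL-101 T cells and 1.31, 1.19 and 1.25 CPM in control T cells, from 288 and 256 UMIs (log2 0.03, SE 0.13). In NK cells the values overlapped too, at 1.07, 1.09 and 0.127 against 0.674, 0.599 and 0.759 CPM (log2 0.25, SE 0.48, edgeR adjusted p = 0.811). At 2000 UMIs per cell 0.431% of T cells had a Kcnk6 UMI and 0.314% a Kcna3 UMI, against 0.149 and 0.297% of NK cells. Among neutrophils 0 of 385 held either, which allows up to 0.954% (exact 95% bound). So few neutrophils cannot tell a share below that bound from background, and neither gene is separated from it here.

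Kcnn4 was higher in T than in NK cells and hardly differed between the groups. It stood at 97.0, 117.3 and 111 CPM in CAL-101 T cells and 100.1, 109.8 and 101.8 CPM in control T cells (log2 0.02, SE 0.08). In NK cells it was several times lower, at 16.8, 23.4 and 21.1 CPM in CAL-101 mice and 17.8, 16.1 and 14.1 CPM in control mice, which overlapped (log2 0.29, SE 0.14, edgeR adjusted p = 0.269). No T cell mouse value came near an NK cell value. Dendritic cells lay between, at 32.1 to 88.8 CPM over the 6 mice, and cluster 11, at 52.9 to 109.8 CPM, reached the T cell range. T-labelled cells held 83 of the 207 Kcnn4 UMIs of cluster 11 in CAL-101 and 35 of the 84 in control mice. Thinned, 19.9% ± 1.57 of CAL-101 and 19.6% ± 1.14 of control T cells had a Kcnn4 UMI, against 1.30% of neutrophils. By cluster, 1 and 4 were highest (147 to 187 and 136 to 166 CPM over the 6 mice) and overlapped each other; clusters 3, 5 and 2 followed at 105 to 123, 96.9 to 117.5 and 88.1 to 107 CPM, neighbours that also overlapped. Cluster 8 held 31.5 to 58.1 CPM, with 299 of its 422 UMIs in CAL-101 and 642 of its 799 UMIs in control mice in T-labelled cells, and cluster 9, at 28.1 to 40.2 CPM, overlapped it.

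**Figure D2:**
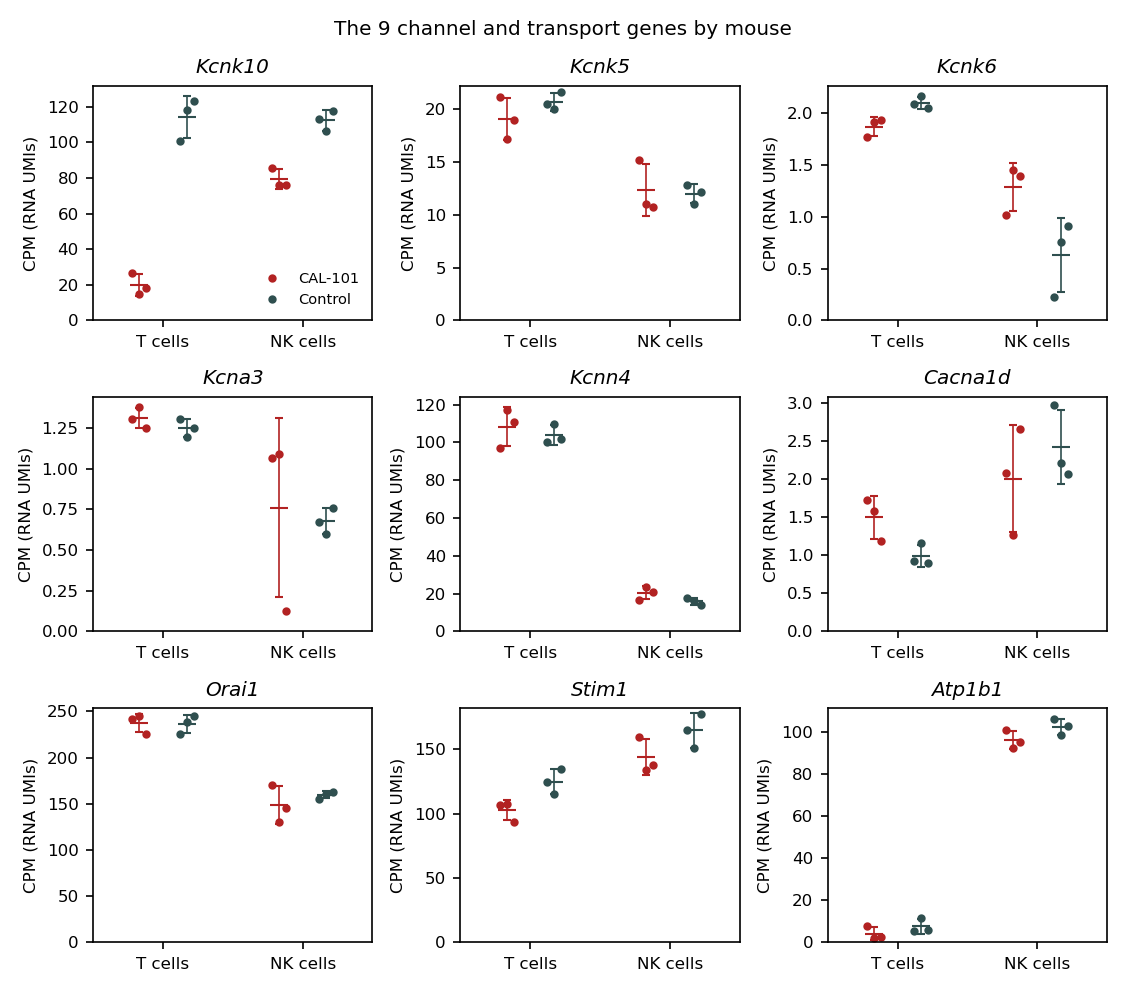
Each panel gives 1 gene in CPM for T and NK cells; points are mice, horizontal bars means and whiskers 1 SD (n = 3 per group), with CAL-101 left of control. Kcnk10 is lower in CAL-101 mice without overlap in both classes. Kcnn4, Orai1, Kcnk5, Kcnk6 and Kcna3 are higher in T than in NK cells without overlap, and Atp1b1 is lower. Kcnk6, Kcna3 and Cacna1d stay under 3 CPM in both classes.

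Calcium entry was described by Orai1, Stim1 and Cacna1d. Orai1, the pore of the calcium release-activated channel (ENSMUSG00000049686, chr5:123015074-123030452), was level between the groups: 242, 245 and 226 CPM in CAL-101 T cells and 226, 239 and 245 CPM in control T cells (log2 -0.03, SE 0.06). NK cells held 171, 131 and 146 CPM in CAL-101 and 156, 160.4 and 163 CPM in control mice, which overlapped (log2 -0.13, SE 0.08, edgeR adjusted p = 0.401). Of T cells thinned to 2000 UMIs, 37.3% ± 0.630 in CAL-101 and 37.4% ± 1.46 in control mice had an Orai1 UMI, against 14.3% of neutrophils. Within cluster 5 alone it was higher without overlap, at 252, 250.1 and 242.5 CPM in CAL-101 and 208.5, 189 and 228.5 CPM in control mice (log2 0.20, SE 0.08).

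Stim1, the calcium sensor of the endoplasmic reticulum (ENSMUSG00000030987, chr7:102261514-102437319), was lower in T cells by a small step. It measured 107, 108 and 93.6 CPM in CAL-101 T cells and 125, 115 and 135 CPM in control T cells, apart in all 6 mice (log2 -0.32, SE 0.07, or 1.25-fold). The lower level was without overlap in clusters 1 and 4, while clusters 2, 3 and 5 overlapped with log2 differences of -0.30, -0.45 and -0.16. In NK cells it was 159.5, 133.5 and 138 CPM in CAL-101 mice and 165, 151 and 177.5 CPM in control mice, with overlap (log2 -0.22, SE 0.08, edgeR adjusted p = 0.143). Of the NK clusters, 0 and 7 were lower without overlap. Thinned, 20.3% ± 0.868 of CAL-101 and 23.6% ± 1.57 of control T cells had a Stim1 UMI.

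Cacna1d encodes the pore of an L-type voltage-gated calcium channel of excitable cells (ENSMUSG00000015968, chr14:30039941-30491156). The gene overlaps 9 other annotated genes, among them Chdh and Dcp1a, and whether the counting used strand was not given in the sources used, so its counts are uncertain. T cells held 1.73, 1.58 and 1.19 CPM in CAL-101 mice and 0.925, 1.16 and 0.898 CPM in control mice, higher without overlap (log2 0.56, SE 0.19), from 324 and 199 UMIs. Thinned, 0.283% of T cells had a UMI, below the 0.519% of neutrophils (2 of 385), so the T cell level is not separated from background. In NK cells it was 2.09, 1.27 and 2.67 CPM in CAL-101 and 2.98, 2.21 and 2.07 CPM in control mice (log2 -0.25, SE 0.27, edgeR adjusted p = 0.633).

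In cells labelled monocytes the groups stood well apart in Cacna1d. These cells had 68.6, 47.3 and 67.3 CPM in CAL-101 mice and 8.36, 6.97 and 3.62 CPM in control mice. Dendritic cells held 10.4, 15.8 and 80.2 CPM in CAL-101 and 30.3, 2.34 and 17.4 CPM in control mice, so monocytes had the higher mean in CAL-101 mice and dendritic cells in control mice. Nearly all of it came from the monocytes of cluster 11, where 16 of 74 CAL-101 cells (21.6%, exact 95% interval 12.9 to 32.7%) and 4 of 35 control cells (11.4%, 3.2 to 26.7%) held a UMI, 65 UMIs in CAL-101 against 7 in control. The intervals of these shares, which pool mice and are not thinned, overlap. The monocytes of cluster 10 held 1 UMI in each group, in 65 and 167 cells, and those of cluster 12 none in 6 and 13.

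Within the cluster 11 monocytes the level was 107, 196 and 132.5 CPM in CAL-101 mice and 72.8, 25.5 and 10.1 CPM in control mice, on 42, 12 and 20 cells against 10, 16 and 9. One cell supplied 11 of the 12 UMIs of CAL-101 mouse 2. Over all cells of cluster 11, Cacna1d stood at 33.8, 46.8 and 48.2 CPM in CAL-101 and 28.0, 8.14 and 16.2 CPM in control mice, higher without overlap. The cluster was a mixture of classes: monocyte and macrophage genes summed to 2212 to 2913 CPM in CAL-101 and 1134 to 3493 CPM in control mice, and dendritic cell genes to 591 to 3364 and 1403 to 3587 CPM. Melanoma markers in cluster 11 summed to only 2.83 to 17.7 and 4.04 to 12.2 CPM. The part of this mixture in the Cacna1d difference was not tested.

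Atp1b1, the beta subunit that carries the sodium-potassium ATPase to the membrane (ENSMUSG00000026576, chr1:164437099-164458355, overlapping Nme7), was an NK cell gene in these tumours. NK cells held 101.2, 92.5 and 95.2 CPM in CAL-101 mice and 106, 98.7 and 103 CPM in control mice, which overlapped (log2 -0.12, SE 0.06, edgeR adjusted p = 0.289). T cells of clusters 1 to 5 held 2.12, 0.953 and 1.15 CPM in CAL-101 and 0.902, 1.40 and 0.734 CPM in control mice. Thinned, 18.1% ± 1.63 of CAL-101 and 18.9% ± 0.760 of control NK cells had a UMI, against 0.260% of neutrophils.

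Over the whole T class Atp1b1 was 7.84, 2.06 and 2.67 CPM in CAL-101 and 5.26, 11.8 and 5.94 CPM in control mice (log2 -0.94, SE 0.50, with overlap). Most of those molecules lay in T-labelled cells of clusters 0, 7, 8, 9 and 13. These held 66.1% of 809 UMIs in CAL-101 and 87.1% of 1476 UMIs in control mice. On T cells of clusters 1 to 5 alone the log2 difference was 0.42, with the opposite sign. The share of T-labelled cells that lay in clusters 0, 7, 8, 9 and 13 was 2.18 to 9.32% in CAL-101 and 7.97 to 16.6% in control mice. It was highest in CAL-101 mouse 1 and control mouse 2, as was Atp1b1. Without CAL-101 mouse 1 the log2 difference over the whole class was -1.72.

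Between clusters Atp1b1 ranked 0 (109 to 125 CPM over the 6 mice), 7 (74.9 to 98.1 CPM), 8 (50.5 to 77.5 CPM) and 9 (61.6 to 70.2 CPM), of which 7 and 8 and 8 and 9 overlap. The small cluster 13 stood at 204, 119 and 210.1 CPM in CAL-101 and 82.2, 86.8 and 69.9 CPM in control mice, on only 3, 8 and 5 cells against 13, 18 and 26, and 24 and 30 UMIs. In cluster 11 it was the other way round, with 3.84, 4.07 and 0 CPM in CAL-101 and 32.0, 59.0 and 26.3 CPM in control mice, from 7 and 50 UMIs. Over all clusters, dendritic cells held 2 Atp1b1 UMIs in CAL-101 and 38 in control mice, 27 and 11 of them in control mice 2 and 3.

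**Figure D3:**
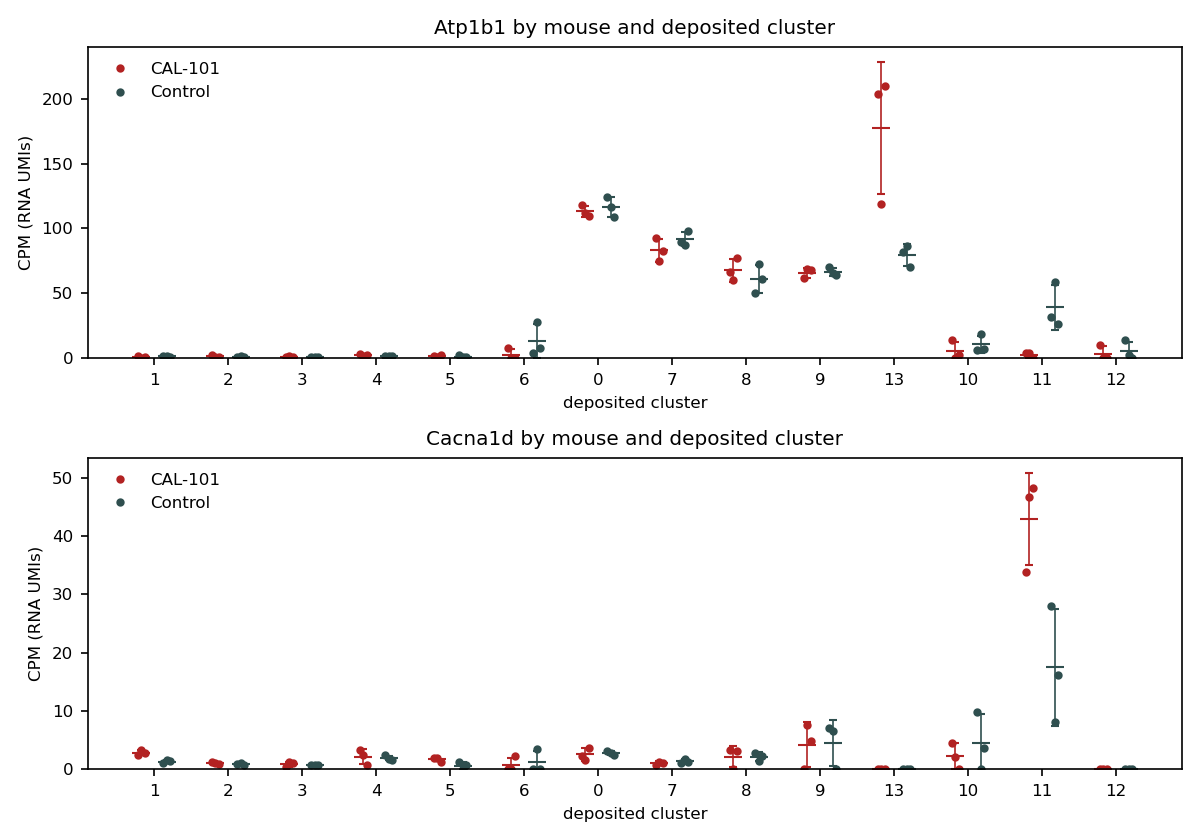
Atp1b1 (top) and Cacna1d (bottom) in CPM for each of the 14 deposited clusters. The order is T cell clusters 1 to 5, the low-RNA cluster 6, clusters 0, 7, 8, 9 and 13, and clusters 10 to 12. Points are mice, horizontal bars means and whiskers 1 SD (n = 3 per group). Atp1b1 is near 0 in clusters 1 to 5 and 50.5 to 125 CPM in clusters 0, 7, 8 and 9, and Cacna1d exceeds 10 CPM in cluster 11 alone.

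In the T cell fit across 16734 genes, 2 of the 9 members passed the threshold, both lower (Kcnk10 and Stim1), where 19.1% of all genes were called and 9.63% were called lower. Groups did not overlap for 4 of the 9 (3 lower, 1 higher), where 39.6% of all genes did not overlap. Because this contrast was among the values behind the choice of the genes, nothing is read from these counts. The 3194 calls over all genes were 1640, 1712 and 1429 without CAL-101 mouse 3, control mouse 1 or control mouse 3. The median log2 difference was -0.16 over the members and 0.00 over all genes tested. In NK cells 1 of the 9 was called, lower, where 4.89% of genes were called (686 of 14028) and 1.92% were called lower. Groups did not overlap for 2 of the 9 (1 lower and 1 higher), where 26.8% of all genes did not. The median was -0.12 over the members and 0.00 over all genes. The number of NK cell calls changed with single mice: 4, 25 and 10 were made without CAL-101 mouse 3, control mouse 1 or control mouse 3, 146 and 435 without CAL-101 mouse 1 or 2, and 1589 without control mouse 2. All 9 members passed the filter on low counts in both fits.

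**Figure D4:**
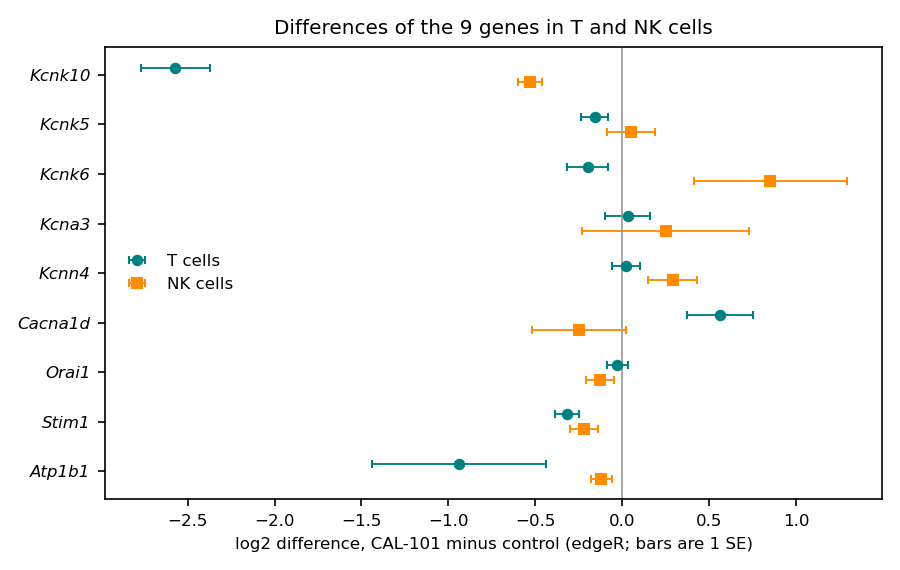
The log2 difference (CAL-101 minus control, horizontal axis) of each of the 9 genes in T cells (circles) and NK cells (squares) from the edgeR fits, with bars of 1 SE on 3 mice per group. Kcnk10 stands at -2.57 in T cells and -0.53 in NK cells, and the other members lie between -0.94 and 0.85.

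Across 74 sums by mouse and cluster with at least 20 cells, the genes whose log2 (CPM + 1) pattern was most like each member's were listed from 9363 genes. These are descriptions, since the sums share libraries and cell types. For Kcnk10 they were Igsf5 (r = 0.831), Stk24 (0.805) and Raph1 (0.782); for Kcnk5 Nr4a2 (0.805), Bdp1 (0.799) and Fam185a (0.793). Kcnn4 went with Gldc (0.939), Grap2 (0.930) and Pdcd1 (0.921), Orai1 with Ncoa2 (0.930), Stk10 (0.926) and Gramd1b (0.922), and Stim1 with Gatad2a (0.941), Epb41 (0.940) and Stat3 (0.931). Atp1b1 went with Sh2d1b1 (0.945), Klrb1b (0.941) and Car2 (0.923), of which the first 2 are NK cell genes. Among the members themselves the closest pair was Orai1 and Kcnn4 (0.81) and the most opposed Atp1b1 and Kcnn4 (-0.77).

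The rest of the channel and calcium-signalling genes, 251 in 11 lists drawn up by family, gave counts near the background. In T cells 163 were tested, of which 20 rose and 14 fell (20.9%), with a median log2 difference of -0.02; 18, 20 and 18 were called without CAL-101 mouse 3, control mouse 1 or control mouse 3. Among two-pore potassium channels 0 of 4 rose and 1 fell, among voltage-gated potassium channels 1 of 23 rose and 3 fell, and among calcium-activated potassium channels 1 of 6 rose and 0 fell. None of 3 inward rectifiers passed. Of the voltage-gated calcium channels 2 of 16 rose and 1 fell, of the genes of store-operated entry and IP3 receptors 1 of 12 rose and 2 fell, and of the calcium pumps, exchangers and uniporter genes 1 of 18 rose and 1 fell. Other cation channels gave 8 higher and 2 lower of 31, chloride channels and cotransporters 3 and 1 of 22, calcineurin and NFAT genes 3 and 2 of 19, and sodium-potassium ATPase genes 0 and 1 of 9.

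Among calcium-signalling genes calls went both ways. Orai2, a second ORAI pore, fell in T cells to 30.6, 29.6 and 27.3 CPM in CAL-101 mice, against 42.8, 45.3 and 47.5 CPM in control mice (log2 -0.67, SE 0.06, edgeR adjusted p = 0.000554). Camk4, a calmodulin-dependent kinase of T cells, fell to 770, 954 and 767 CPM in CAL-101 mice, against 1362, 1233 and 1410 CPM in control mice (log2 -0.72, edgeR adjusted p = 0.00238). Mcu, the pore of the mitochondrial calcium uniporter, fell by 0.37 on the log2 scale (edgeR adjusted p = 0.00285). Stim2, the second STIM sensor, overlapped at 107, 107 and 91.2 CPM in CAL-101 and 91.5, 105 and 98.9 CPM in control T cells (log2 0.01, edgeR adjusted p = 0.943).

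Among potassium transport genes, Kcnq5, a voltage-gated channel, fell to 623, 581 and 539 CPM in CAL-101 T cells, against 748, 781 and 813 CPM in control T cells (log2 -0.47, edgeR adjusted p = 0.00301). Kcnk7, of the two-pore family, fell by 0.77 (edgeR adjusted p = 0.00420). Atp1b3, another beta subunit of the pump that Atp1b1 belongs to, had a log2 difference of -0.06 in T cells (edgeR adjusted p = 0.539).

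On the other side, Trpc1, a cation channel of the TRP family, rose in T cells to 14.7, 16.4 and 17.3 CPM in CAL-101 mice, against 8.16, 6.01 and 7.11 CPM in control mice (log2 1.15, SE 0.12, edgeR adjusted p = 0.000861). Lrrc8c, a subunit of volume-regulated anion channels, rose by 0.36, Ano6, a lipid scramblase and ion channel, by 0.30 and Camk2d, a calmodulin-dependent kinase, by 0.35 on the log2 scale (edgeR adjusted p = 0.00505, 0.00701 and 0.00824). Atp2a2, the calcium pump of the endoplasmic reticulum, and Cabin1, an inhibitor of calcineurin, rose by 0.30 and 0.21 (edgeR adjusted p = 0.0189 and 0.0311). Those last 2 calls were lost without several single mice: for Atp2a2 without CAL-101 mouse 1 or 3 or control mouse 1 or 3, and for Cabin1 without any one of the 6.

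In NK cells 128 of the 251 were tested, of which 2 rose and 4 fell (4.69%, median log2 difference -0.01). Orai2 fell there too, to 27.7, 28.8 and 27.6 CPM in CAL-101 mice, against 42.3, 37.2 and 42.6 CPM in control mice (log2 -0.57, SE 0.08, edgeR adjusted p = 0.0148), as did Camk4 (log2 -0.74, edgeR adjusted p = 0.0276). Micu3, a regulator of the mitochondrial uniporter, fell by 0.55 and Hvcn1, a voltage-gated proton channel, by 0.87 (edgeR adjusted p = 0.0149 and 0.0307). Plcg2, a phospholipase upstream of calcium release, rose by 0.32 (edgeR adjusted p = 0.0483). By edgeR 0 list genes were called without CAL-101 mouse 3, control mouse 1 or control mouse 3 (25, 20 and 16 at an unadjusted p under 0.05), 3 were without CAL-101 mouse 1 and 18 without control mouse 2; DESeq2 on all 6 mice called 9. Stim2 (log2 -0.20) and Atp1b3 (-0.06) did not pass in NK cells (edgeR adjusted p = 0.162 and 0.589).

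**Figure D5:**
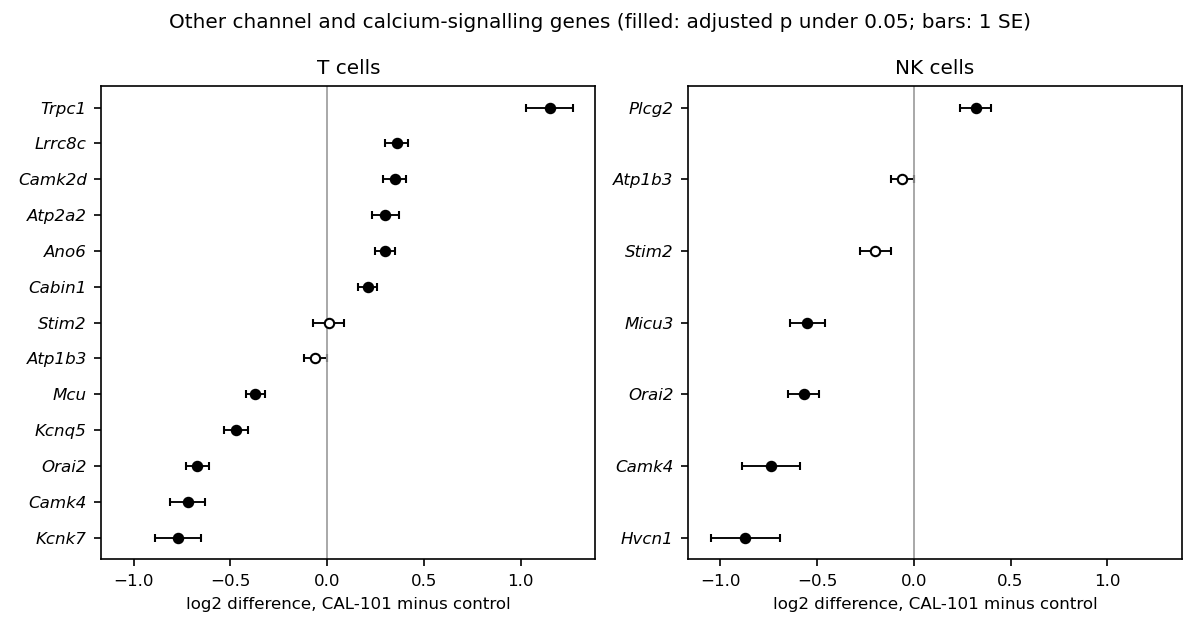
The log2 difference (CAL-101 minus control, horizontal axis, bars 1 SE) of the other channel and calcium-signalling genes named by a fixed rule, in T cells (left) and NK cells (right); filled points passed an adjusted p of 0.05 in edgeR. Orai2 and Camk4 lie below 0 in both classes, and Trpc1 in T cells stands highest at 1.15.

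Whether an effect differed between T and NK cells was tested with limma on the difference between the classes within each mouse; 126 of 13901 genes (0.906%) were called. Among the 251 list genes this held for Plcg2 and Hvcn1. By limma 0 genes were called without CAL-101 mouse 2 or 3 or control mouse 2 or 3 (1570 to 2446 at an unadjusted p under 0.05), 1 without control mouse 1 and 52 without CAL-101 mouse 1. For the members, whose T cell side was known when they were chosen, the log2 effect in T minus NK cells is a description: it was -2.07 for Kcnk10, -0.94 for Atp1b1, -1.23 for Kcnk6 and 0.86 for Cacna1d, and between -0.30 and 0.23 for the other 5.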

How the data were processed

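RNA and antibody-tag UMI counts per cell were deposited by the authors for 6 mice, produced by Cell Ranger 7.1.0 as the file headers state; the submitters' processing notes name mm10 and Seurat. Annotation and cell filters were not given in the sources used. Cluster numbers and cell type labels are the authors' own, from the deposited cell table. The members and the 11 other gene lists were chosen with earlier results of these data known. Here RNA UMIs were added up for each mouse and class. The quasi-likelihood test of edgeR 4.0.16 in R 4.3.3 was run on these sums with TMM factors, filterByExpr, group as sole term and Benjamini-Hochberg adjustment at 0.05. The difference between classes was tested with limma 3.58.1 on log2 CPM (prior count 2), and DESeq2 1.42.0 was an alternative. CPM (counts per 1000000 RNA UMIs) are taken over the cells summed. Python 3.11.15 with pandas 2.3.3 and scipy 1.17.1 was used for shares and exact binomial intervals, which cover counting error only. Other list genes were named if called with a mean of at least 5 CPM, up to 6 each way by smallest p, with Orai2, Stim2 and Atp1b3 always; 2 genes that the rule names are not reported here. No doublet caller was run; the 5% deepest cells were left out as an alternative. Replicates differed by more than sampling noise (chi-square per degree of freedom 8.54 to 45.3). The tests were tried on simulated data. Positions and promoter windows are RefSeq, GRCm38.p6; all 9 members matched by Ensembl ID.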

Additional observations from a re-analysis of the deposited data

Results flagged for a closer look

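Plcg2, a phospholipase of calcium signalling, differed in effect between T and NK cells: its log2 difference (CAL-101 minus control) was -0.52 in T cells and 0.32 in NK cells, and the T minus NK difference was -0.82 (limma adjusted p = 0.0351). Hvcn1, a proton channel, ran the other way, at 0.33 in T cells and -0.87 in NK cells, with a T minus NK difference of 1.25 (limma adjusted p = 0.0427). By limma 0 genes passed without CAL-101 mouse 2 or 3 or control mouse 2 or 3 (1570 to 2446 at an unadjusted p under 0.05). Kcnk6 was lower without overlap in CAL-101 T cells and higher without overlap in CAL-101 NK cells. Groups did not overlap for 39.6% of all genes tested in T cells and 26.8% in NK cells. The NK side was not called (edgeR adjusted p = 0.299, from 40 and 51 UMIs), and the T cell share was not separated from background. The T minus NK log2 difference of -1.23 is a description, since the T cell side of Kcnk6 was known when it was chosen.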

How the results depend on the processing

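Counts of called genes changed with single mice. Leaving out 1 mouse at a time gave 1429 to 3850 genes in T cells, against 3194 with all 6, and 4 to 1589 in NK cells, against 686. Other channel-list genes ran from 18 to 39 in T cells (34 with all mice) and from 0 to 18 in NK cells (6), and genes with a T minus NK difference from 0 to 52 (126). Same-numbered mice did not deviate together (correlations of -0.252 to 0.00507 in T cells and -0.0948 to 0.0662 in NK cells), so the numbers do not pair them. With the replicate block 1495 genes were called in T cells, 473 in NK cells and 0 (limma; 2122 at an unadjusted p under 0.05) for the T minus NK difference, with 21 channel-list genes in T cells and 6 in NK cells. Without a filter on low counts NK cells gave 1323 genes and 12 channel-list genes, clusters 0, 7, 9 and 13 alone gave 213, and a minimum count of 50 gave 275 for the T minus NK difference. DESeq2 called 3445 genes in T cells and 930 in NK cells. The cause of these shifts was not tested.

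Atp1b1 in T cells, -0.94 over the whole class, had the opposite sign on clusters 1 to 5 (0.42) and with cluster shares held at their mean (0.28). Over single omitted mice Kcnk5 in NK cells ran from -0.15 to 0.15 and Kcna3 in NK cells from -0.34 to 0.64 (log2), and Stim2 in T cells from -0.04 to 0.07. Kcnk5 in NK cells was -0.04 with sums thinned to equal depth and Stim2 in T cells -0.02 without the deepest cells. Kcnk10 in T cells stayed between -2.83 and -2.38 under every alternative run, and Kcnk10 in NK cells between -0.58 and -0.49. Stim1 in NK cells passed without control mouse 2 (edgeR adjusted p = 0.0409). Of 144 member values in T cells under alternatives, 133 kept their sign, 7 had the opposite sign (Atp1b1, Kcna3, Kcnn4 and Orai1) and 4 rounded to 0; in NK cells 123 of 127 kept it. The held mixture of clusters was an alternative added after seeing the data. Depth and the small number of thinned neutrophils limit Kcnk6, Kcna3 and Cacna1d, whose T cell shares were not separated from background.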
